A study of Prunus armeniaca and Prunus mume with 8 samples.

Results

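Fruit of Xiyeqing, a cultivar of Japanese apricot (Prunus mume), was compared with fruit of Zhenkui, a cultivar of apricot (Prunus armeniaca), on 4 of the 8 one-colour Agilent arrays of a single slide. The members are the 2 arrays whose cultivar label is Xiyeqing and the 2 whose label is Zhenkui, all in row 2 of the slide. The other 4 arrays, in row 1, carried Ruantiaohongmei (P. mume) and Manao (P. armeniaca), with 2 arrays each, and serve here for the spread between arrays and for one comparison of the pairs. Per its title, the series looks for fruit development genes that differ between the species. The labels name no treatment. Fruit was frozen in liquid nitrogen and is labelled as a mixture of stages. Collection ran over stages 1 to 8, from 3 to 13 weeks after full bloom. The stages behind each array are not labelled, and nothing says that replicates came from different trees. The p-values therefore reflect only variation among these samples, which could be technical. Xiyeqing lay in columns 1 and 2 of the row and Zhenkui in columns 3 and 4, so slide column and cultivar cannot be told apart within the pair.

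Apricot and Japanese apricot are stone fruits whose flesh softens when enzymes such as polygalacturonase, beta-galactosidase and expansin loosen the cell wall, under the control of the gas ethylene. The same fruits carry proteins that meet pathogens, among them polygalacturonase-inhibiting protein (PGIP) and the PR-10 family, which includes the Bet v 1-like allergens of cherry and peach. Their seeds store cyanogenic glucosides, which prunasin hydrolase and mandelonitrile lyase break down to release cyanide. In RNA from fruit, fewer cells of a type and less RNA per cell cannot be told apart.

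Levels are given as log2 of the signal minus the 75th percentile of the array, so 0 is that percentile, and levels of different probes cannot be compared. Differences are Xiyeqing minus Zhenkui on this log2 scale. Xiyeqing replicate 1 and replicate 2 had 8901 and 8982 probes well above background, and Zhenkui replicate 1 and replicate 2 had 8816 and 8499. The 2 Xiyeqing arrays correlated at r = 0.972 across probes and the 2 Zhenkui arrays at r = 0.983, against 0.909 to 0.932 between the cultivars. These are correlations across probes, which are not independent replicates. The median absolute difference was 0.33 between the Xiyeqing arrays and 0.30 between the Zhenkui arrays, against 0.53 between the cultivar means.

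Of 9125 probes tested, 2541 (27.8%) were called, that is, had a Benjamini-Hochberg adjusted p under 0.05 in limma. Of these, 1149 (12.6% of the tested probes) were higher and 1392 (15.3%) were lower in Xiyeqing, while the median difference over all tested probes was -0.07. At 2-fold or more, 1941 probes were called (21.3%), with 959 higher and 982 lower in Xiyeqing. The largest differences lay on the higher side: 402 called probes were at least 4-fold higher against 241 lower, and 105 were at least 16-fold higher against 34 lower. The 2 arrays of each cultivar did not overlap at 5998 probes (65.7%), with Xiyeqing above Zhenkui at 2676 (29.3%) and below at 3322 (36.4%). Calls fell to 1278 without Xiyeqing replicate 2, to 1291 without Zhenkui replicate 1 and to 1414 without Zhenkui replicate 2, against 2086 without Xiyeqing replicate 1.

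**Figure D1:**
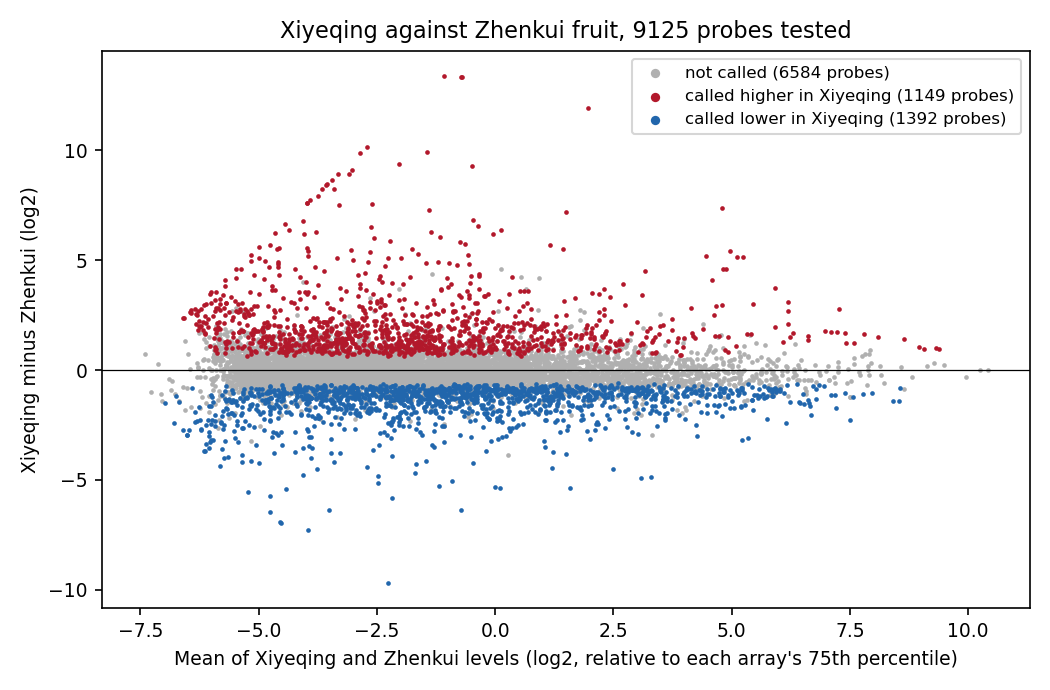
Difference between Xiyeqing and Zhenkui (vertical, log2) against the mean level of the 2 cultivars (horizontal, log2 relative to each array's 75th percentile), with 1 point for each of 9125 tested probes. The 1149 probes called higher in Xiyeqing reach larger differences than the 1392 called lower.

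Descriptions exist only for probes in the authors' deposited 2-fold lists, which were chosen on these samples, so neither a gene's presence nor a group's direction is independent evidence. A protein is named for 241 probes, of which 233 were tested and 128 were called (54.9%), with 65 higher and 63 lower in Xiyeqing and a median of 0.23. The counts called in each gene list below are to be read beside this 54.9%. Of the 68 tested protein probes whose description comes only from a list of another comparison, 18 were called.

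The calls ran in unequal directions for probes of different origin. Among probes made from clusters with identifiers starting with actca, 704 were higher and 529 lower in Xiyeqing. Among probes made from CB entries, 79 were higher and 152 lower, and among CV entries 114 were higher and 222 lower. Contigs had 165 higher and 378 lower, and other GenBank entries 87 higher and 111 lower. The share called was 29.0% of 4249 tested actca probes, 22.8% of 1012 CB and 26.1% of 1289 CV probes. It was 27.8% of 1954 contigs and 31.9% of 621 other entries. CB and CV entries, where described, are tags from apricot fruit libraries. The part that a probe's match to each species plays in its signal was not tested.

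The widest gap among named proteins was in defence. All 9 PGIP probes were called higher in Xiyeqing, with a median difference of 5.72. PGIP sits in the plant cell wall and blocks the pectin-degrading enzymes of fungi. The probes come from sequences of several Prunus species and may read the same transcripts, so they are not 9 genes. The P. mume sequence AY903225.1 had levels of 1.67 and 4.20 in Xiyeqing, against -2.90 and -4.85 in Zhenkui. It was 112-fold higher in Xiyeqing (log2 difference 6.81 ± 0.92 SE, adjusted p = 0.00302). The smallest of the 9 differences, for the P. americana sequence AY903227.1, was 29.2-fold (levels of 1.07 and 1.86 in Xiyeqing, against -2.28 and -4.53 in Zhenkui). The arrays of a cultivar also differed: replicate 2 exceeded replicate 1 by 0.80 to 2.52 in Xiyeqing, and replicate 2 lay under replicate 1 by 1.83 to 2.76 in Zhenkui, for every one of the 9. All 9 calls were made with each array left out in turn, where the list median ranged between 4.73 and 6.75.

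PR-10 proteins, small intracellular proteins induced by pathogens, were called higher in Xiyeqing at 10 of 10 probes, with a median of 4.85. These probes also come from several Prunus species and may read the same transcripts, so they are not 10 genes. Replicate 2 minus replicate 1 had a list median of 2.47 in Xiyeqing and -1.13 in Zhenkui. The cherry allergen AY540509.1, of the Pru av 1 family, had the largest difference of any named protein, with levels of 4.82 and 5.40 in Xiyeqing against -1.70 and -2.50 in Zhenkui. This is 148-fold higher in Xiyeqing (7.21 ± 0.60 SE, adjusted p = 0.000493), with the 2 groups of arrays far apart. The peach PR-10 protein EU117120.1 followed, at 6.44 and 8.92 in Xiyeqing and 2.81 and 1.70 in Zhenkui. The peach allergen Pru p 1 (DQ251187.1) was 34.9-fold higher. The apricot allergen homolog U93165.1 read 8.26 and 9.06 in Xiyeqing and was also high in Zhenkui, at 6.40 and 5.40, a 6.77-fold difference. The weakest call was another Pru av 1 allergen (AY540508.1), 6.86-fold higher with an adjusted p of 0.0481. The number called stood at 9 without Xiyeqing replicate 1, at 8 without Xiyeqing replicate 2, at 9 without Zhenkui replicate 1 and at 6 without Zhenkui replicate 2. The related cherry allergen PRUA1 (U66076.1), which the word pattern placed among the other defence proteins, was 16.8-fold higher in Xiyeqing (adjusted p = 0.0142), a call lost without Zhenkui replicate 2.

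The other defence proteins did not share this pattern. Of 15 tested, 2 were called higher, 2 lower and 11 neither, with a median of 0.36. Besides PRUA1, the disease resistance protein EF640680.1 was higher in Xiyeqing. Defensin 1 (AY078426.1), a small antimicrobial peptide, was 4.87-fold lower in Xiyeqing, with levels of 6.65 and 6.08 against 8.56 and 8.74 in Zhenkui (adjusted p = 0.00878). Lipid transfer protein 1 (AY093700.1) was also called lower, by 0.87 on the log2 scale. The peach beta-1,3-glucanase AJ002748.1, an enzyme that attacks fungal walls, was not called: its levels were -4.37 and 4.00 in the 2 Xiyeqing arrays and -2.40 and -5.35 in the 2 Zhenkui arrays. The call of defensin was lost without Xiyeqing replicate 2 (adjusted p = 0.0548), and those of EF640680.1 and AY093700.1 were lost without several of the arrays.

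**Figure D2:**
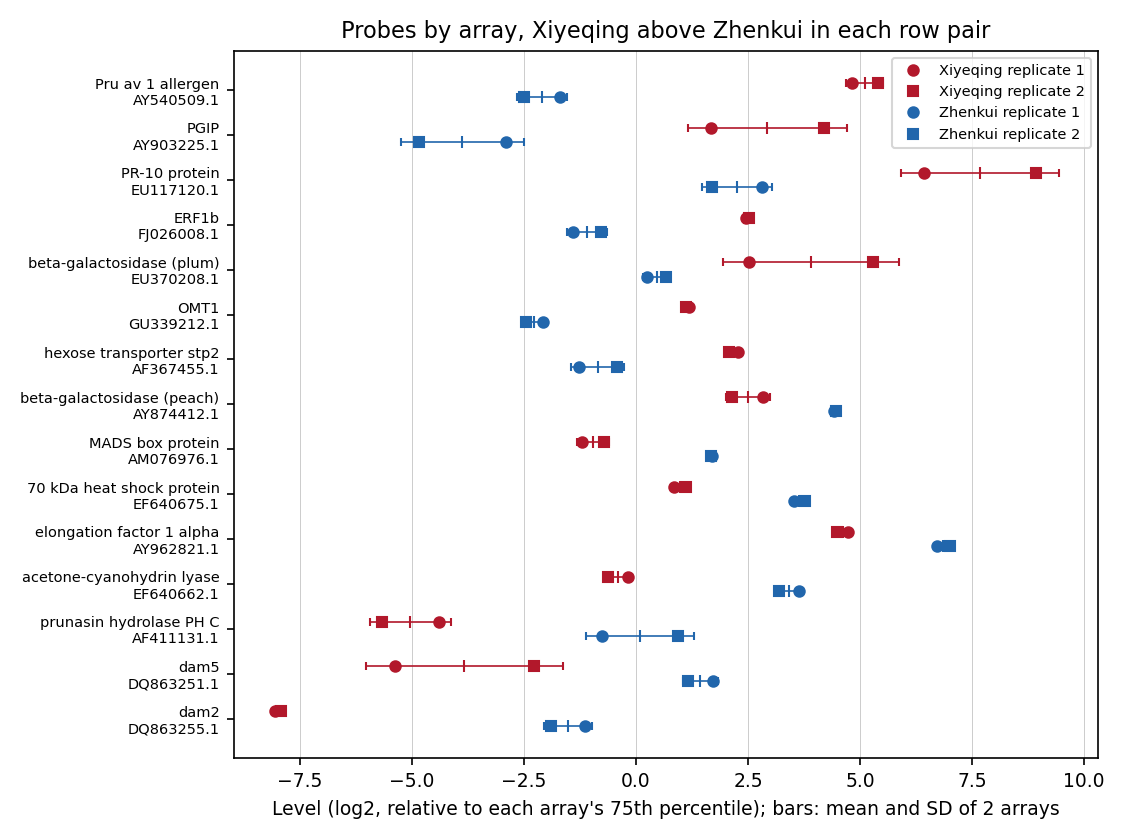
Levels of 15 probes (rows) on each array, in log2 relative to the array's 75th percentile (horizontal), with Xiyeqing drawn above Zhenkui in each row. Circles are replicate 1, squares replicate 2, and bars give the mean and SD of 2 arrays. The PGIP probe AY903225.1 ranges between 1.67 and 4.20 in Xiyeqing, while dam2 sits at the bottom of the scale on both Xiyeqing arrays.

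Enzymes of cyanogenic glucoside breakdown split by isoform. Of 7 tested probes, 3 were called higher, 3 lower and 1 neither in Xiyeqing, with a median of -0.64. Prunasin hydrolase removes the glucose from prunasin, and its isoforms went opposite ways. Isoform PH I (U50201.2, black cherry) had levels of -1.34 and -2.38 in Xiyeqing, against -7.98 and -6.76 in Zhenkui, where it was not well above background on either array. It was at least 12.2-fold higher in Xiyeqing (adjusted p = 0.00165). A bound of this kind sets the mean of the brighter cultivar against the mean, per array, of the lowest signal well above background or the dim probe's own signal, whichever is higher. Such a bound holds for the main processing and not for every alternative. Isoform PH C (AF411131.1) had levels of -4.40 and -5.68 in Xiyeqing, against -0.76 and 0.94 in Zhenkui, and was 35-fold lower in Xiyeqing (adjusted p = 0.00213). It was above background on only 1 of the 2 Xiyeqing arrays, and with normexp background correction its log2 difference was -2.88, against -5.13 here. Isoform PH B (AF411009.1) was 8.71-fold lower in Xiyeqing. The next step is the splitting of mandelonitrile. The probe for mandelonitrile lyase MDL4 (AF053884.1) read 5.13 and 4.32 in Xiyeqing and 3.00 and 3.54 in Zhenkui. This is 2.73-fold higher, in the direction of PH I and against that of PH C and PH B. A putative acetone-cyanohydrin lyase of almond (EF640662.1), which releases cyanide from another cyanohydrin, was 14.1-fold lower in Xiyeqing, at -0.19 and -0.62 against 3.63 and 3.19 in Zhenkui (adjusted p = 0.000221). The calls of PH I, PH C and the lyase of almond held with each array left out. Those of the MDL4 probes were lost without Xiyeqing replicate 1 or Zhenkui replicate 1, and that of PH B without Xiyeqing replicate 2.

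The only described marker from the fixed seed list, the apricot oleosin AY962832.1, was not called, with levels of -5.48 and -4.90 in Xiyeqing and -6.14 and -5.49 in Zhenkui, near the bottom of the measured range on all 4 arrays. The one member of the list for pistil and pollen, an S-locus-like receptor kinase (AY645718.1), was 6.40-fold higher in Xiyeqing, and it is not one of the S-RNases that define the pistil. Green tissue was represented by 3 probes. A photosystem I assembly protein (EF640703.1) was called higher by 0.82 and a light-harvesting protein (AF039598.1) lower by 1.14, both calls lost in several alternatives. The third probe was not called, with a difference of 2.70, and was higher by 4.22 on Xiyeqing replicate 2 than on replicate 1. The part of such tissues in the differences was not tested.

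Cell wall enzymes also split within families. Beta-galactosidases, which trim galactan side chains off pectin, were called at 7 of 7 probes, 4 higher and 3 lower in Xiyeqing. The plum probe EU370208.1 had levels of 2.53 and 5.30 in Xiyeqing and 0.24 and 0.68 in Zhenkui, 11.0-fold higher. The peach probe AY987025.1 was 11.9-fold higher. In the opposite direction, the peach probe AY874412.1 was 3.84-fold lower in Xiyeqing, with 2.84 and 2.14 against 4.42 and 4.46 in Zhenkui (adjusted p = 0.00359). The apricot probe AF184080.1 (GAL1) was 3.14-fold lower and beta-galactosidase 3 (GU462128.1) was 2.41-fold lower. The higher calls rested on the arrays used: 4 without Xiyeqing replicate 1, but none without Xiyeqing replicate 2 or without Zhenkui replicate 1, and 1 without Zhenkui replicate 2. The number called lower was 3, 1, 1 and 3 in the same order of arrays left out.

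Expansins, which loosen the wall without cutting it, had a median of -1.11 over 10 tested probes, but only 1 was called. That probe, exp1 of peach (AF367459.1), read 3.23 and 2.74 in Xiyeqing and 4.57 and 3.90 in Zhenkui, 2.38-fold lower, a call lost without Xiyeqing replicate 2 or Zhenkui replicate 1. Expansin levels differed between the 2 Zhenkui arrays: replicate 2 lay under replicate 1 at all 10 probes, by 0.46 to 3.34. For the apricot expansin AF038815.1 the levels were 1.50 and 4.74 in Xiyeqing, and 6.49 and 3.39 in Zhenkui, so that the 2 cultivars overlapped. Without Zhenkui replicate 2, 5 expansins were called lower and the list median was -1.92, while without Zhenkui replicate 1 none was called and the median was -0.07. Among the other wall-degrading enzymes, 1 of 9 tested members was called, a pectate lyase (GU462127.1) that was 2.20-fold lower in Xiyeqing. Leaving out any 1 of the 4 arrays ended that call. Without Xiyeqing replicate 1 the filter passed 14 members, of which 5 were called higher, with a median of 2.71.

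The remaining 5 of the 14 other wall-degrading enzymes were endopolygalacturonase probes that could not be tested, because no cultivar had them well above background on both its arrays. Of the 4 arrays compared here, Xiyeqing replicate 2 alone had them well above background. Endopolygalacturonase cuts the pectin backbone late in ripening. The peach probe DQ340810.1 read -8.07 and 0.58 in Xiyeqing, against -7.98 and -5.90 in Zhenkui. The probe X76735.1 read -8.07 and -0.31 in Xiyeqing and -7.98 and -7.14 in Zhenkui. The 3 remaining probes had the same shape, with -0.86, -0.49 and 0.43 on Xiyeqing replicate 2. A sixth polygalacturonase probe, DQ340809.1, was tested and gave a difference of -0.00, with -5.34 and -3.0 in Xiyeqing and -4.23 and -4.10 in Zhenkui.

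These probes belong to a wider difference between the 2 Xiyeqing arrays. Among the 8710 probes above background on both, 632 (7.26%) differed by at least 2-fold, 543 of them higher on replicate 2. Among the 8382 such probes in Zhenkui, 456 (5.44%) did, 184 higher and 272 lower on replicate 2. Of the 24 members of the ripening fruit list, background probes included, 13 were at least 2-fold higher on Xiyeqing replicate 2 and none at least 2-fold lower. In Zhenkui the same list held 3 members at least 2-fold higher and 8 at least 2-fold lower on replicate 2. Xyloglucan endotransglycosylase (AF534870.1), which rejoins hemicellulose chains, read 0.57 and 5.76 in Xiyeqing and 0.77 and 0.07 in Zhenkui. Beta-D-xylosidase (AF362990.1) read -0.18 and 5.44 in Xiyeqing, while Zhenkui gave 1.64 and 1.21. In both, Xiyeqing replicate 1 was close to or under the Zhenkui arrays and replicate 2 far above them, and neither was called.

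Ethylene synthesis had the same ordering of arrays at lower amplitude. All 10 probes, for ACC synthase and ACC oxidase, which make the precursor and the gas, were higher on Xiyeqing replicate 2 than on replicate 1, by 1.1 to 2.34, while the 2 Zhenkui arrays differed by -0.62 to 0.49. The apricot ACC oxidase AF026793.1 read 5.15 and 7.24 in Xiyeqing and 4.57 and 4.61 in Zhenkui. One of the 10 was called, an ACC synthase of plum (AJ890087.1) that was 2.91-fold higher in Xiyeqing (adjusted p = 0.0497), a call lost without Xiyeqing replicate 2 or with only 1 Zhenkui array. The list median was 0.81. It was 1.63, with 4 probes called higher, without Xiyeqing replicate 1, and 0.19, with none called, without Xiyeqing replicate 2.

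Among the described probes that were tested, the widest gaps between the Xiyeqing arrays after the glucanase above were in small heat shock proteins, chaperones that hold unfolded proteins. GQ850382.1 of plum read -0.64 and 5.99 in Xiyeqing and -1.77 and -1.38 in Zhenkui, and AY500559.1 of peach read -0.25 and 6.31 in Xiyeqing and -1.44 and -0.89 in Zhenkui. Both phosphoenolpyruvate carboxykinase probes, for an enzyme that turns organic acids towards sugar, were about equally split: AY962819.1 read 2.19 and 7.34 in Xiyeqing, against 2.29 and 2.12 in Zhenkui. Phytoene synthase 1 (AY822067.1), the entry to carotenoid synthesis, read 1.51 and 4.34 in Xiyeqing and 0.61 and 0.71 in Zhenkui. None of these was called between the cultivars. Probes lower on Xiyeqing replicate 2 than on replicate 1 differed less, with allene oxide synthase (AJ633680.1, jasmonate synthesis) at 2.97 and 1.95 in Xiyeqing, against 3.41 and 4.17 in Zhenkui. An almond protein of unknown function (EF640663.1), at 0.61 and -0.44 in Xiyeqing against 2.24 and 1.88 in Zhenkui, was called lower, but not without Xiyeqing replicate 2 or either Zhenkui array.

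The 2 Zhenkui arrays differed most in cold and drought regulators of the CBF/DREB family. CBFa (HM099909.1) read -0.69 and 0.04 in Xiyeqing and 3.54 and -1.20 in Zhenkui. The second CBFa probe (HM099907.1) read -1.86 and -1.17 in Xiyeqing and 2.83 and -1.86 in Zhenkui, and the peach regulator EF635424.1 read -2.60 and -1.89 in Xiyeqing and 1.87 and -2.78 in Zhenkui. Zhenkui replicate 1 stood above the other 3 arrays for each, and none was called. Higher on Zhenkui replicate 2 were the MYB factor FJ860134.1, with -2.17 and -2.47 in Xiyeqing against -1.32 and 1.63 in Zhenkui, and RNase PD2 (AF202030.1), with 2.08 and 2.23 in Xiyeqing against -1.83 and 0.57 in Zhenkui. The RNase was called 6.93-fold higher in Xiyeqing, a call lost without either Xiyeqing array or without Zhenkui replicate 1. Which stages each array held is not in the labels, and the part of stage in these gaps was not tested.

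**Figure D3:**
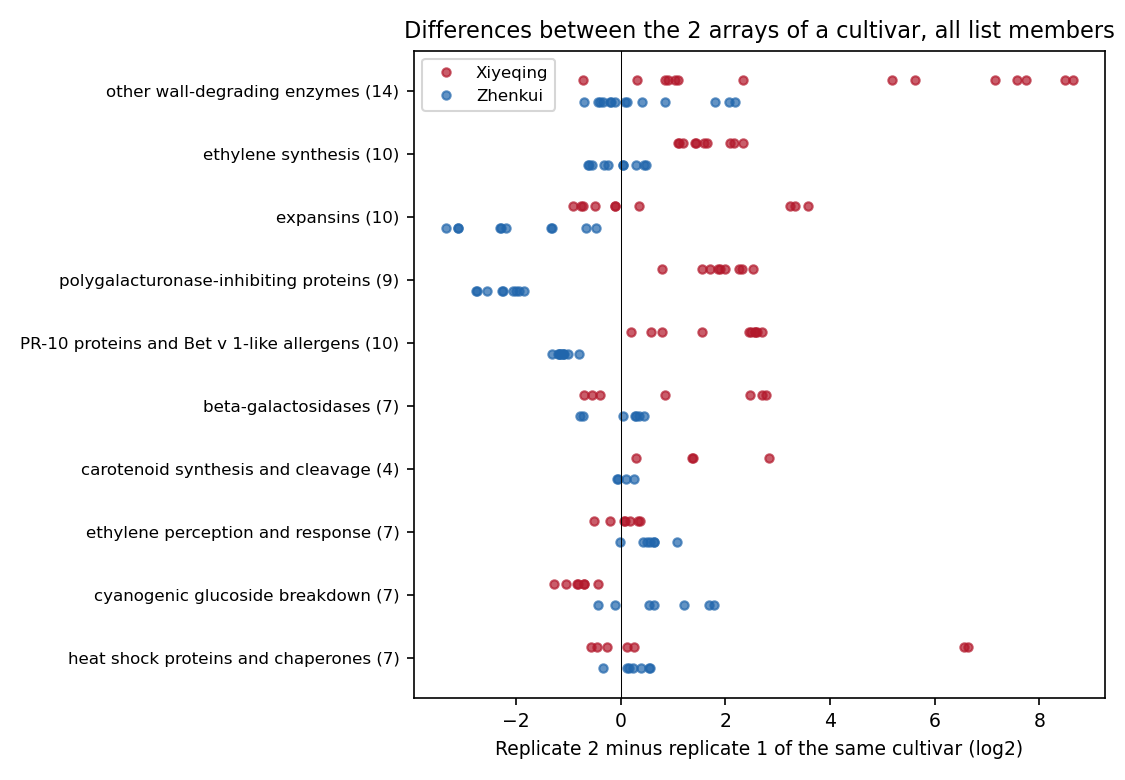
Replicate 2 minus replicate 1 of the same cultivar (horizontal, log2) for every member of 10 gene lists, background probes included, with Xiyeqing drawn above Zhenkui. All 10 ethylene synthesis probes and all 9 PGIP probes lie right of 0 in Xiyeqing, and all 9 PGIP and all 10 expansin probes lie left of 0 in Zhenkui.

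Ethylene perception and response held closer replicates. Of 7 probes, 4 were called higher, 1 lower and 2 neither in Xiyeqing. ERF1b (FJ026008.1), a transcription factor of the ethylene response, read 2.45 and 2.53 in Xiyeqing and -1.42 and -0.78 in Zhenkui, 12-fold higher (adjusted p = 0.00849). All 3 probes of EIN2, the membrane protein that passes the signal to the nucleus, were called higher, by 1.13 to 1.22. The ethylene receptor ERS1 (AY061640.1) read 1.35 and 1.52 in Xiyeqing, 1.90-fold lower, against 2.37 and 2.35 in Zhenkui. These calls were fragile: with an array left out, 1 probe at most stayed called higher (none without Zhenkui replicate 1), and 1 lower was called without either Xiyeqing array and none without either Zhenkui array.

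MADS-box regulators, transcription factors of flowers, fruits and dormancy, were lower. Of 8 tested, 5 were called lower and none higher in Xiyeqing, with a median of -2.40. The dormancy-associated gene dam2 (DQ863255.1) read -8.07 and -7.92 in Xiyeqing, not above background on either array, and -1.13 and -1.89 in Zhenkui. It was at least 18.2-fold lower in Xiyeqing (adjusted p = 6.78e-05). The enoyl-CoA hydratase probe U93271.1 had the same Xiyeqing values, so they mark the floor of each array. The adjusted p of dam2 rests in part on their small spread. dam5 (DQ863251.1) read -5.39 and -2.27 in Xiyeqing and 1.71 and 1.16 in Zhenkui, 38.4-fold lower. A peach MADS box protein (AM076976.1) was 6.25-fold lower, with -1.21 and -0.71 in Xiyeqing against 1.70 and 1.67 in Zhenkui. The neighbouring dam1 (DQ863253.2) was not called, though both Xiyeqing arrays (-3.97 and 0.67) lay under both Zhenkui arrays (2.49 and 1.92). For dam3 (DQ863256.1) the cultivars overlapped, with -3.24 and 1.97 in Xiyeqing. Between 3 and 5 probes were called lower, and none higher, with any 1 array left out, 3 of them without Zhenkui replicate 1.

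Of 15 transcription factors, some of which the lists above also hold, 2 were called higher, 3 lower and 10 neither. The MYB factor FJ860135.1 of peach was at least 5.83-fold higher in Xiyeqing, at -2.83 and -3.03, against -6.95 and -7.54 in Zhenkui, where it was not above background. The almond MYB factor EF640705.1 was 5.31-fold lower in Xiyeqing, with 5.40 and 4.51 against 7.27 and 7.46 in Zhenkui. The homeobox gene GQ281773.1 and the almond MADS1 (AY947462.1) were also lower, by 1.71 and 1.47 on the log2 scale, calls lost without Xiyeqing replicate 1 or Zhenkui replicate 1 (GQ281773.1) and without Xiyeqing replicate 2 or either Zhenkui array (AY947462.1). The call of FJ860135.1 was lost with normexp background correction (difference of 0.92, adjusted p = 0.0556). Without Zhenkui replicate 2, 6 of the list were called lower, and without Zhenkui replicate 1 its median was 0.30, against -1.35 with all arrays.

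Of 6 sugar genes, 4 were called higher in Xiyeqing and 1 lower, with a median of 1.05. The number called higher was 2 without Xiyeqing replicate 1, 1 without any other single array, and 2 with no filter on dim probes or with the replicate block. The hexose transporter stp2 (AF367455.1) read 2.28 and 2.08 in Xiyeqing and -1.27 and -0.43 in Zhenkui, 8.17-fold higher (adjusted p = 0.00365). Sucrose synthase sus1 (AF367450.1), which splits sucrose, was 3.42-fold higher, with -1.52 and -1.49 in Xiyeqing against -3.16 and -3.41 in Zhenkui. The sorbitol transporter SOT1 (AY924379.1) was higher by 1.14. The enzyme that forms sorbitol, the main transported sugar alcohol of the family, is sorbitol-6-phosphate dehydrogenase. Its probe FJ645737.1 was 4.27-fold lower, at -4.46 and -3.35 in Xiyeqing and -2.43 and -1.18 in Zhenkui. The calls of sus1 and SOT1 were lost without any 1 of the arrays, and that of FJ645737.1 without Xiyeqing replicate 1 or Zhenkui replicate 2.

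Genes of organic acids and proton pumps had 4 called lower, none higher and 3 uncalled of 7, with a median of -0.90. Malate dehydrogenase (AF367442.1) read 3.85 and 3.83 in Xiyeqing and 5.56 and 5.30 in Zhenkui, 3.01-fold lower (adjusted p = 0.00554). The plasma membrane proton pump PPA2 (AJ271438.1) was not above background in Xiyeqing and was at least 5.33-fold lower there. Its call was lost without any 1 array, with normexp background correction and with the authors' deposited log2 values. The smallest log2 difference of PPA2 in any alternative was -0.82. A second pump probe (AJ271440.1) was lower by 1.16, a call lost without Xiyeqing replicate 2 or Zhenkui replicate 2. The list's calls depended on the arrays: 3 higher and 2 lower without Xiyeqing replicate 1, 2 lower without Zhenkui replicate 1, and 1 lower without replicate 2 of either cultivar.

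Among transport proteins outside sugars, the peptide transporter PTR2 (AF213936.1) was 5.81-fold higher in Xiyeqing, at -0.35 and 0.12 against -2.72 and -2.58 in Zhenkui. The tonoplast water channel gTip1 (AF367456.1) was lower by 1.35, a call lost without either Xiyeqing array or without Zhenkui replicate 1. The list as a whole, sugar carriers included, had 4 higher, 1 lower and 2 uncalled of 7 tested, and 2 higher without Xiyeqing replicate 2 or either Zhenkui array.

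Redox proteins had 6 higher, 2 lower and 5 uncalled of 13 tested, beside 54.9% called over all tested protein probes. Catalase, which breaks down hydrogen peroxide, split by isoform. The peach cat2 (AJ496419.1) read 6.69 and 7.11 in Xiyeqing and 5.36 and 4.52 in Zhenkui, 3.89-fold higher. Catalase 1 (AJ132444.1) read 1.61 and 1.65 in Xiyeqing and 3.68 and 4.00 in Zhenkui, 4.63-fold lower (adjusted p = 0.000712). A second cat1 probe of peach (AJ496418.1) was lower by 1.76. The class III peroxidase EF640707.1 was 9.61-fold higher in Xiyeqing and the secretory peroxidase AY962824.1 higher by 1.64. The calls of both catalase 1 probes and of EF640707.1 held with each array left out, that of cat2 was lost without Xiyeqing replicate 2, and that of AY962824.1 without any 1 array. The number called higher in the list was 1 without Xiyeqing replicate 2 and 2 without Zhenkui replicate 2.

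Heat shock proteins and chaperones had 4 called lower, none higher and 3 uncalled of 7 tested. The 3 uncalled members, the 2 small heat shock proteins above among them, had both Xiyeqing arrays above both Zhenkui arrays. Over all tested probes, 29.3% did so. The 70 kDa heat shock protein of almond (EF640675.1) read 0.86 and 1.12 in Xiyeqing and 3.52 and 3.77 in Zhenkui, 6.31-fold lower (adjusted p = 0.000336). HSP60 (AF489695.1) was lower by 2.00 and a dnaK-type chaperone (EF640669.1) by 1.69. Without Xiyeqing replicate 1, where replicate 2 stands alone, the 2 small heat shock proteins were called higher.

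Genes often taken as references for constant expression were lower too. Of 7 tested, 6 were called lower in Xiyeqing, and the list median was -1.14, against -0.07 over all tested probes. Elongation factor 1 alpha (AY962821.1) read 4.74 and 4.50 in Xiyeqing and 6.73 and 7.00 in Zhenkui, 4.75-fold lower (adjusted p = 0.00165). The actins FJ560908.1 and AF321852.1 were lower by 1.21 and 1.18. The list median stayed between -1.23 and -0.95 in every scaling, background, filter and leave-out alternative run.

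**Figure D4:**
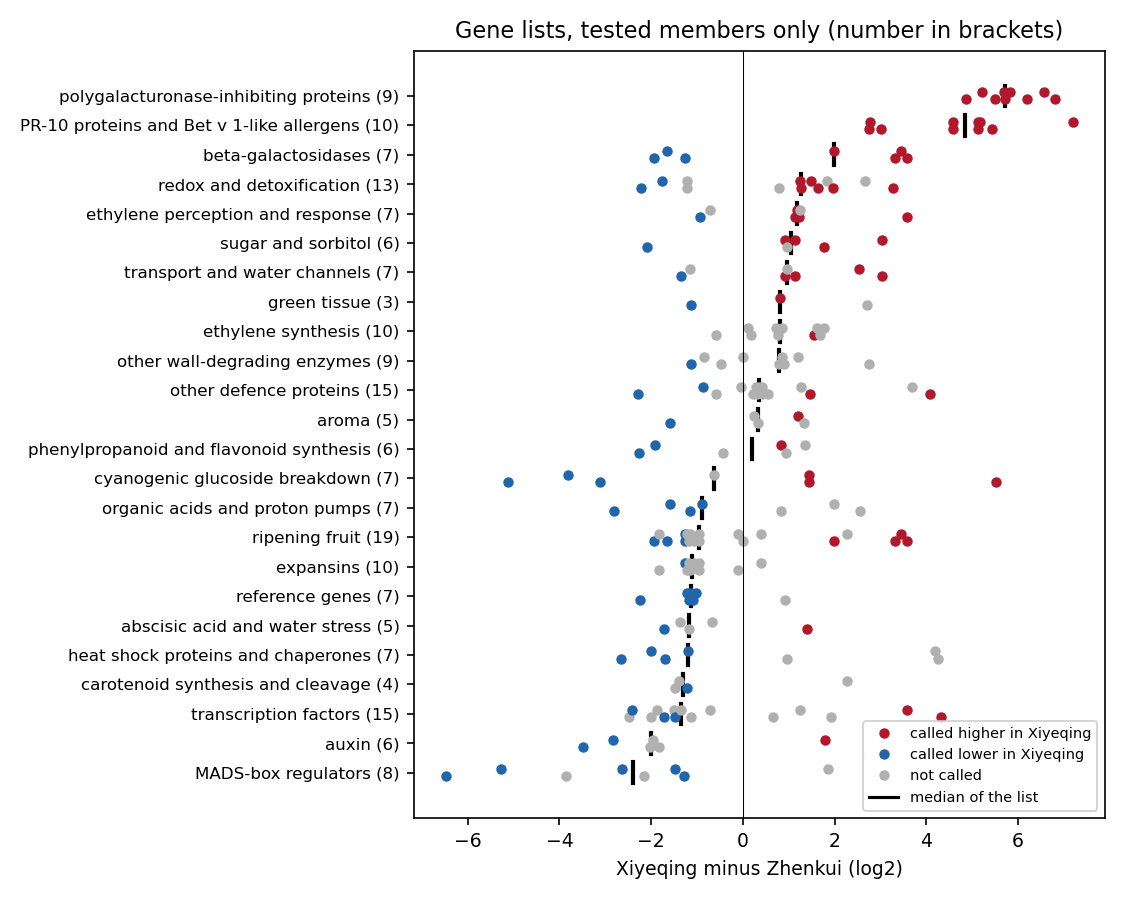
Xiyeqing minus Zhenkui (horizontal, log2) for the tested members of each gene list with at least 3 of them, ordered by the list median (black bar). Red points were called higher and blue points lower in Xiyeqing, and grey points were not called. PGIP and PR-10 probes lie wholly right of 0, MADS-box and organic acid calls all lie left of it, and beta-galactosidases and cyanogenic enzymes fall on both sides.

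Genes of secondary metabolism were called in both directions. Of 6 phenylpropanoid and flavonoid genes, 1 was higher, 2 lower and 3 uncalled. Phenylalanine ammonia-lyase, which opens the pathway, was lower at both probes: the apricot probe EF031063.1 read 2.64 and 2.26 in Xiyeqing and 4.09 and 5.34 in Zhenkui, 4.80-fold lower, and the cherry probe AF036948.1 was lower by 1.91. A cinnamoyl-CoA reductase (AF298828.1) was higher by 0.83. Of 4 carotenoid genes, phytoene desaturase (AY822065.1) was called, at 0.47 and 0.77 in Xiyeqing and 1.71 and 1.97 in Zhenkui, 2.33-fold lower, and 3 were called lower without Xiyeqing replicate 2. Of 5 tested aroma genes, a lipoxygenase (AJ418043.2) was 2.30-fold higher and an alcohol dehydrogenase (EF640714.1) 3.02-fold lower. Every call of this paragraph was lost with at least 1 array left out: that of phytoene desaturase without Zhenkui replicate 2, those of the 2 lyase probes without Xiyeqing replicate 2 or Zhenkui replicate 2 (AF036948.1 also without Xiyeqing replicate 1), that of the dehydrogenase without Xiyeqing replicate 2 or Zhenkui replicate 1, and those of the reductase and the lipoxygenase without Xiyeqing replicate 2 or either Zhenkui array.

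Hormone genes outside ethylene varied. Of 6 auxin genes, 1 was higher and 2 lower, with a median of -2.0. The auxin-binding protein ABP20 (U81162.1) read -0.34 and -1.05 in Xiyeqing and 1.77 and 3.82 in Zhenkui, 11.3-fold lower. An auxin-induced protein of apricot (AY962829.1) was 7.07-fold lower, and an auxin-repressed protein of apricot (U93273.1) was higher by 1.79. Of 5 genes of abscisic acid and water stress, the ripening-like protein AF317062.1 was 2.62-fold higher and a dehydrin of almond (DQ061115.1), which protects cells as they dry, was 3.28-fold lower. The calls of AY962829.1, U93273.1 and AF317062.1 were lost without Xiyeqing replicate 2 or either Zhenkui array, that of U81162.1 without either Xiyeqing array or Zhenkui replicate 2, and that of DQ061115.1 without Xiyeqing replicate 2 or Zhenkui replicate 1.

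Several of the largest named differences lay outside these groups. Enoyl-CoA hydratase of apricot (U93271.1), an enzyme of fatty acid breakdown, read -8.07 and -7.92 in Xiyeqing, not above background, and -3.0 and -1.92 in Zhenkui. It was at least 9.42-fold lower in Xiyeqing (adjusted p = 0.000262). Its Xiyeqing values are the floor values that dam2 also had, so this adjusted p rests in part on their small spread. A methyltransferase of apricot (U82011.1) was 7.79-fold lower, with -1.82 and -2.62 in Xiyeqing against 0.49 and 1.00 in Zhenkui. A latex-like protein (AJ002747.1) was 4.84-fold lower, at -0.31 and 0.91 in Xiyeqing against 2.66 and 2.49 in Zhenkui, a call lost without Xiyeqing replicate 1 or either Zhenkui array. On the higher side, an O-methyltransferase-like protein of P. mume (GU339212.1), chosen after its values were seen, read 1.17 and 1.12 in Xiyeqing and -2.08 and -2.46 in Zhenkui, 11-fold higher (adjusted p = 0.000944). RNase PD2 (above) lost its call without either Xiyeqing array or Zhenkui replicate 1.

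The largest differences of all were at probes for which no protein is named. The cluster actca_Cluster3651.seq.Contig1 read 5.67 and 5.56 in Xiyeqing, against -7.95 and -7.57 in Zhenkui, where it was not above background, at least 2177-fold higher. The cluster actca_Cluster3871.seq.Contig1 was at least 2803-fold higher. In the other direction, CV052221.1 read -8.07 and -6.15 in Xiyeqing, not above background, and 2.63 and 2.49 in Zhenkui, at least 306-fold lower in Xiyeqing, and AB437345.1 was at least 42.2-fold lower. In all, 295 probes were above background on both Xiyeqing arrays and neither Zhenkui array, and 118 the reverse.

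The difference between Xiyeqing and Zhenkui was set against that between Ruantiaohongmei and Manao, the other pair of a P. mume with a P. armeniaca cultivar, on arrays of the other slide row. In this comparison the pair and the slide row cannot be told apart. In the other pair 1971 probes (21.6%) were called, of which 1444 were called the same way in Xiyeqing against Zhenkui and 7 the opposite way. The difference between the pairs itself was called at 18 probes (0.197%), 15 higher and 3 lower in Xiyeqing minus Zhenkui, with 694 at an unadjusted p under 0.05. A protein is named for 2 of the 18.

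Chalcone synthase (DQ856583.1, cherry plum), the first enzyme of flavonoid and anthocyanin synthesis, read 3.96 and 3.86 in Xiyeqing and 4.32 and 4.36 in Zhenkui, a difference of -0.43 that was not called (adjusted p = 0.527). In the other row it read -4.47 and -2.92 in Ruantiaohongmei and 3.31 and 3.82 in Manao, a difference of -7.26. The pairs differed by 6.83 ± 0.66 SE (adjusted p = 0.0126). Inosine monophosphate dehydrogenase (AF068844.1, peach), an enzyme of guanine nucleotide synthesis, read 2.45 and 2.50 in Xiyeqing and 3.22 and 3.51 in Zhenkui, 0.89 lower and called, though not without either Xiyeqing array or Zhenkui replicate 2. It read -3.86 and -3.70 in Ruantiaohongmei and 3.06 and 3.23 in Manao, and the pairs differed by 6.04 ± 0.29 SE (adjusted p = 0.00073). For both genes, Xiyeqing stood with the 2 apricot cultivars and Ruantiaohongmei alone was low. The call for chalcone synthase was lost without Manao replicate 2 or without any 1 array of Xiyeqing or Zhenkui, with adjusted p up to 0.0975, and that for the dehydrogenase was kept in every alternative run.

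Some further genes stood apart in 1 pair without a called difference between the pairs. Prunasin hydrolase PH I differed by 5.51 in Xiyeqing minus Zhenkui and 1.1 in Ruantiaohongmei minus Manao (adjusted p of the difference 0.229). ERF1b differed by 3.59 and 0.87 (0.561). The EIN2 probe DQ364145.1 differed by 1.22 and -0.23 (0.57). Other probes were called in both pairs, among them PGIP AY903225.1, with differences of 6.81 and 7.63, and the allergen AY540509.1, with 7.21 and 7.21.

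**Figure D5:**
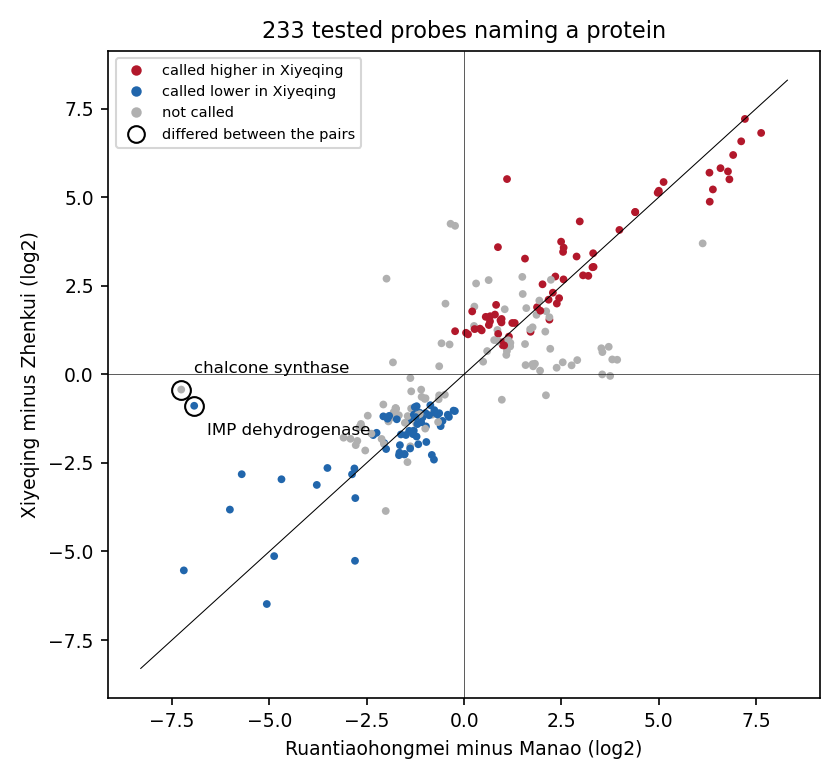
Xiyeqing minus Zhenkui (vertical, log2) against Ruantiaohongmei minus Manao (horizontal, log2) for 233 tested probes that name a protein, coloured by the call in Xiyeqing against Zhenkui. The line marks equal differences. The circled chalcone synthase (-0.43 against -7.26) and inosine monophosphate dehydrogenase (-0.89 against -6.93) lie far from it.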

How the data were processed

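Scanner intensity values, background-subtracted and detrended by Agilent Feature Extraction (10.7.1.1 per the file headers, 8.1 per the submitters' processing notes), were taken from the deposited files. Control spots and outlier-marked spots were left out. The log2 signal minus each array's 75th percentile over non-control probes was averaged per probe. A probe was tested if some cultivar had it well above background on its 2 arrays (9125 of 10384), and fitted with limma 3.58.1 in R 4.3.3, as 4 cultivar means over all 8 arrays. Xiyeqing minus Zhenkui and the difference between the pairs were contrasts. The fit left 4 residual degrees of freedom, and the small number of arrays limits precision. The authors' deposited log2 table served as an alternative, and descriptions came from the authors' deposited tables of log2 differences, ratio (fold) and p-values. How that log2 table was normalized is not stated in the labels or headers. Its column medians were 6.71 to 6.81.

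The gene lists and members were chosen with earlier results of these data known. Lists are word patterns over descriptions. Named genes are the 15 largest calls each way whose arrays do not overlap, up to 3 calls each way per list (or the largest uncalled member), the calls between pairs naming a protein, the 3 largest gaps each way between arrays of a cultivar, and the 2 largest calls each way without a protein name. Others were chosen after their values were seen. Alternatives were normexp (offset 50, on the median signal, since the planned mean signal is not in the files), quantile and median scaling, other filters, limma options, and each array left out. The fit was tested on simulated data.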

Additional observations from a re-analysis of the deposited data

Results flagged for a closer look

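The difference between Xiyeqing and Zhenkui departed from that between Ruantiaohongmei and Manao, by a test of the difference itself in limma, at 18 probes. No cultivar lay on both slide rows. A protein is named for 2 of them. Chalcone synthase (DQ856583.1) had a difference between the pairs of 6.83, and inosine monophosphate dehydrogenase (AF068844.1) one of 6.04. In both, Xiyeqing minus Zhenkui was small (-0.43 and -0.89) and Ruantiaohongmei minus Manao was far below 0 (-7.26 and -6.93). Slide row and pair cannot be told apart. With 2 arrays per cultivar, no array could be tested as an outlier within its group.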

How the results depend on the processing

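No named gene that was called changed sign in any alternative run. Uncalled genes did: AJ002748.1 to -0.49 without Xiyeqing replicate 2, and without Zhenkui replicate 1 EF635424.1 to 0.54, HM099907.1 to 0.34 and HM099909.1 to 0.88. Probes printed as bounds fell under their bounds in at least 1 alternative. Normexp gave 1.59 for PH I (U50201.2) and -2.12 for dam2 (DQ863255.1). The smallest difference in any alternative was -1.40 for U93271.1, -0.82 for AJ271438.1, -2.93 for AB437345.1 and -5.54 for CV052221.1. For actca_Cluster3651.seq.Contig1 and actca_Cluster3871.seq.Contig1 it was 8.55 and 8.84. The printed bounds therefore hold only for the main processing. Of 90 named results that were called, 42 kept the call in every alternative, and 24 lost it only when an array was left out. Fitting only the 4 arrays of the comparison gave 1579 calls, 789 higher and 790 lower in Xiyeqing. With 1 array left out the calls ranged between 1278 and 2086, those higher between 587 and 1043 and those lower between 650 and 1043. A cultivar left with 1 array was assumed to vary like the others. For the difference between the pairs, normexp gave 11 calls, 9 of them higher, and the filter for all 8 arrays gave 5, 3 of them higher. With 1 array left out that count ranged between 10 and 23, those higher between 8 and 17 and those lower between 1 and 6. The replicate block gave 2486 calls between Xiyeqing and Zhenkui and 15 between the pairs. Deviations from the cultivar means of same-numbered arrays correlated at r = -0.172 over 8131 probes. This cannot decide whether the replicate numbers pair the samples, since each cultivar gives a single difference and probes are not independent. A block with the numbers crossed, chosen after seeing the data, gave 2000 calls. Between Xiyeqing and Zhenkui, normexp gave 787 calls higher and 1225 lower in Xiyeqing, and median scaling 1052 higher and 1598 lower. No alternative moved the share of higher calls by over 10 percentage points. Dim probes are limited by background: their differences are bounds. Where readings sit at an array's floor, as for dam2 and U93271.1, the adjusted p rests in part on the small spread of floor values.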
